A study of Mus musculus with 4 samples.

Results

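The genes described here encode the B class of Eph-ephrin signalling, which are the ligands Efnb1, Efnb2 and Efnb3 and the receptors Ephb1, Ephb2, Ephb3 and Ephb4. These 7 genes were chosen for their roles in arteries and veins, and they were also selected on the peak calls of these libraries, through the gained and lost regions at Efnb2, so the differences between time points below are descriptions and carry no test. Chromatin accessibility had been measured by ATAC-seq, in which a transposase cuts open DNA, in mouse embryonic stem cells (mESCs) of the line ES-E14TG2a. The paper calls this line WT, as the unedited parent of its deletion clones. The d2 libraries were made from embryoid bodies on day 2, before any inducing factor was added. The d4 libraries were made on day 4, after 40 h in Activin A at 8 ng/ml, BMP4 at 0.5 ng/ml and VEGF at 5 ng/ml, which drive the cells toward cardiogenic mesoderm. Each time point had 2 libraries of 15000 cells, and each replicate was an independent differentiation experiment on this 1 line. Values are given with replicate 1 before replicate 2 throughout. The labels name no sorting of cells, and fewer cells with an open region and less opening per cell cannot be told apart.

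Peaks that overlapped between libraries were merged into 40910 union regions, of which 35041 lay within 100 kb of the start of a protein-coding transcript and were assigned to the nearest one. The 7 genes took 42 of these regions. A region was called gained when both d4 libraries and neither d2 library had a peak, lost in the reverse case, shared when all 4 libraries had one, and other for the remaining patterns. Of the 42 regions, 4 were gained, 11 were lost, 7 were shared and 20 were other, and 14 of the other regions had a peak in 1 library only. Among all assigned regions the shares were 8.48% gained, 13.2% lost and 31.9% shared, against 9.52%, 26.2% and 16.7% of the 42. Since the genes were chosen with the regions at Efnb2 known, nothing is read from that comparison. A region without a peak is one that fell below the authors' threshold, not one shown to be closed.

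Ephrin B ligands are transmembrane proteins whose cytoplasmic tail signals back into the cell that carries them, and Eph B receptors are receptor tyrosine kinases that signal forward into the cell that meets the ligand. Contact between cells bearing the ligand and cells bearing the receptor leads to repulsion or adhesion, and so to sorting of cells and guidance of axons. In the embryonic vasculature ephrin B2 marks arterial endothelial cells (ECs) and its receptor EphB4 marks venous ECs, and both are needed for the primitive vessel network to be remodelled. Distance from a start does not show that a region regulates the gene.

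The regions are numbered for each gene from upstream to downstream of the start they were assigned to. The sequences below show some of the intergenic and intronic regions, chosen after their values and motif matches were seen, so that 3 of the 4 gained regions, 4 of the 11 lost ones and 1 shared one can be read. They do not stand for their classes. Each is the 201 bp around the highest summit of the region, on the plus strand of mm10, with matches to the searched motifs in capitals. Efnb2 9 (chr8:8602818-8603018), Efnb1 4 (chrX:99199329-99199529) and Ephb3 3 (chr16:21216124-21216324) were gained. Efnb2 1 (chr8:8640321-8640521), Efnb2 5 (chr8:8655265-8655465), Ephb1 2 (chr9:102403671-102403871) and Ephb2 1 (chr4:136750887-136751087) were lost, and Efnb2 8 (chr8:8609235-8609435), near Efnb2 9, was shared.
Efnb2 9, gained: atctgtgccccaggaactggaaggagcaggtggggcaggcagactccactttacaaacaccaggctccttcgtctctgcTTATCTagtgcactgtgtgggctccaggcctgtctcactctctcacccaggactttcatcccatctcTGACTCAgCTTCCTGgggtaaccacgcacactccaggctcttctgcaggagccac
Efnb1 4, gained: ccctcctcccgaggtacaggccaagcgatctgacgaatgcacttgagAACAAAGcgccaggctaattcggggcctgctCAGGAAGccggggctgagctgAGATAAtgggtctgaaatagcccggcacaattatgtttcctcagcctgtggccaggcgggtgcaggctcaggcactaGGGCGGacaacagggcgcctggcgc
Ephb3 3, gained: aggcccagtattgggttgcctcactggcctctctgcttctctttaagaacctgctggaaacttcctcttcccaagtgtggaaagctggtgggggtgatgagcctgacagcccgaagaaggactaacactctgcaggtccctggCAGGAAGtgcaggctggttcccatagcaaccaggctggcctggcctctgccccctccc
Efnb2 1, lost: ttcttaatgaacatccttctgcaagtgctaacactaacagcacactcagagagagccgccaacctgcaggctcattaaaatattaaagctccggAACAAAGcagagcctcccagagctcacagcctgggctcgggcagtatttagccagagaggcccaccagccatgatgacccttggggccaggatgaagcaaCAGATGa
Efnb2 5, lost: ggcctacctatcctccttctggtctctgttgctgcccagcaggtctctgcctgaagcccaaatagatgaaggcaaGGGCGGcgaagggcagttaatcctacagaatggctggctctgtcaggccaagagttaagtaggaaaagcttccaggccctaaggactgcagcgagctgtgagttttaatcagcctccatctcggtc
Ephb1 2, lost: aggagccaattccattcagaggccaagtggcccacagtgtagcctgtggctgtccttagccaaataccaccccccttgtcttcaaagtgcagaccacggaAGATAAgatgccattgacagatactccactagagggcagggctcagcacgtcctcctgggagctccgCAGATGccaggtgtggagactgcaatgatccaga
Ephb2 1, lost: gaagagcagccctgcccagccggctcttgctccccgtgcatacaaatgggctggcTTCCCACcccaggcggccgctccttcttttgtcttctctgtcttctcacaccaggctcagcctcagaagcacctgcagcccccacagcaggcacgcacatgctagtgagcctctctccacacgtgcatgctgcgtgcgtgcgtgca
Efnb2 8, shared: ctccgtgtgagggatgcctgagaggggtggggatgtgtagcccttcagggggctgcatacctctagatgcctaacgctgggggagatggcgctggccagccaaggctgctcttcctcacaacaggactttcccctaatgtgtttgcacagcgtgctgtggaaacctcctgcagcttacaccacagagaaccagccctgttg

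In the gained windows, a GATA match began 21 bp before the summit of Efnb2 9 and 1 bp before that of Efnb1 4. The 3 gained sequences shown held an ETS match, while the gained region not shown, Ephb3 1, held an E-box and a KLF/SP match and neither GATA nor ETS. Efnb2 9 also held an AP-1 match that began 46 bp past its summit, next to the ETS match at 54 bp, and Efnb1 4 also held a SOX and a KLF/SP match. Among the lost windows shown, Ephb1 2 held a GATA match at its summit and an E-box, Efnb2 1 a SOX match and an E-box, Efnb2 5 a KLF/SP match and Ephb2 1 an RBPJ match. Of the lost windows not shown, Efnb2 6 held GATA, ETS and SOX matches, Efnb1 6 and Efnb3 3 KLF/SP matches and Ephb1 7 an E-box, and Ephb1 5, Ephb1 6 and Ephb3 5 held none. Counts over all 42 regions stand with the shares of all regions further on. The shared window Efnb2 8 held none of the letters searched.

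Among the ligands, Efnb2, whose product marks arteries, had the most regions. It had 13 regions, and 99.7% of the 15068 genes with a region had fewer. They comprised 1 gained, 3 lost, 2 shared and 7 other regions, over a gene of 43.8 kb on the minus strand of chromosome 8 with 2 coding starts, an outer and an inner one. The rank holds for assignment to coding starts only and includes regions with a peak in 1 library. Regions Efnb2 6 to Efnb2 13 lay nearer to a start of Gm45075 or Gm31463, neither of them protein-coding.

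**Figure D1:**
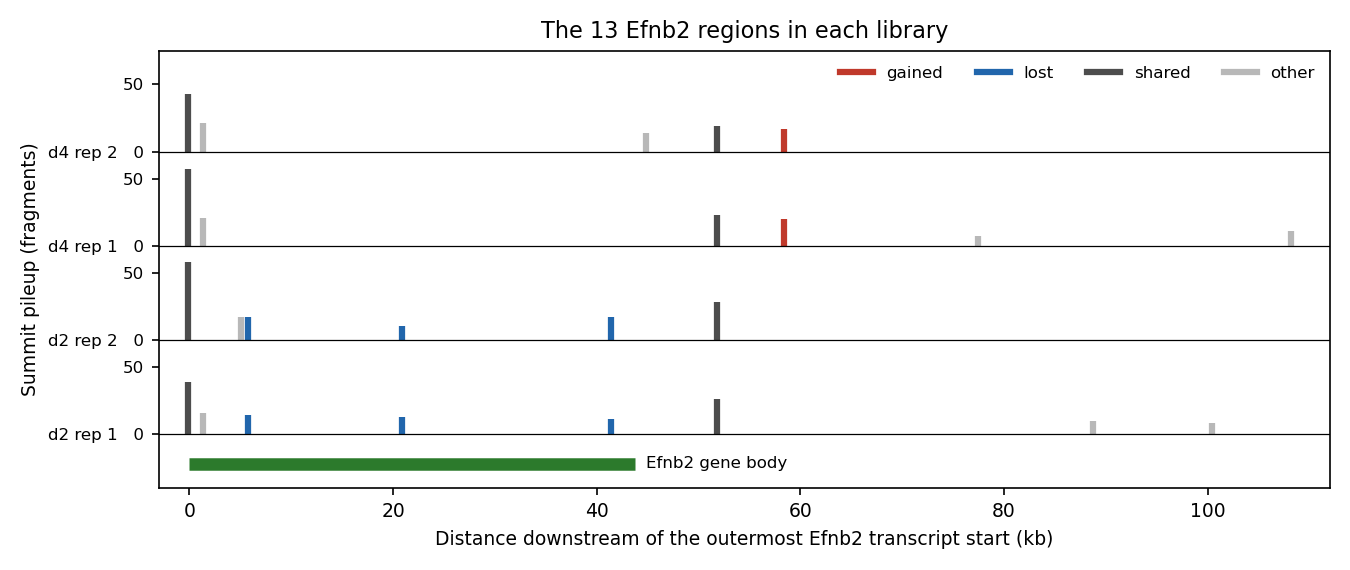
The 13 Efnb2 regions in each library, placed by distance (kb) downstream of the outermost Efnb2 start, with bar height giving the summit pileup (fragments over the summit) and colour the class. The 3 lost regions lie within the gene at 5.8, 20.9 and 41.4 kb, the gained region lies past its 3′ end at 58.4 kb, and the shared regions stand at the start and at 51.9 kb.

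The region at the outer Efnb2 start (Efnb2 2, chr8:8660943-8661788, over the 5′ UTR and exon 1) had a peak in all 4 libraries. The summit pileup, the number of fragments over the summit as solved from the deposited values, was 39 and 58 in the d2 libraries and 57 and 43 in the d4 libraries. These are among the strongest peaks, between the 92.5 and 98.5 percentiles of their libraries, and the values of d2 and d4 overlapped. Its summit fell within a span of 67 bp, from 91 to 24 bp before the start.

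The gained Efnb2 region (Efnb2 9, chr8:8602698-8603056) was intergenic, 58.4 kb downstream of the outer start and 36307 bp from the inner one. It had pileups of 20 and 17 at d4 and no peak at d2. Fold enrichment over the local background was 9.18 and 7.99 with −log10 q of 14.6 and 11.4, and the summits of both d4 libraries were 4 bp apart. Among the 4 gained regions of the family it was the only one above a −log10 q of 10 in both d4 libraries. The nearest start of any gene type was that of the noncoding gene Gm45075, 9208 bp away.

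The lost Efnb2 regions were all inside the gene. Efnb2 5 (chr8:8655275-8655607, intron 1) had pileups of 14 and 17 at d2. Efnb2 1 (chr8:8640242-8640466, also intron 1) lay 879 bp from the inner start and had 13 and 10. Efnb2 6 (chr8:8619690-8619925, the 3′ UTR in exon 5) had 11 and 17. These are moderate peaks, with fold enrichments between 4.74 and 8.16, and none of the 3 had a peak in either d4 library. The d2 summits lay 198 bp apart in Efnb2 5, 42 bp in Efnb2 1 and 56 bp in Efnb2 6.

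A shared region stood between the lost and the gained ones. Efnb2 8 (chr8:8609173-8609591, intergenic, 51.9 kb from the outer start) had pileups of 26 and 28 at d2 and 23 and 19 at d4. Both d4 values were lower than both d2 values. The gap between this region and the gained Efnb2 9 was 6116 bp.

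The 7 other Efnb2 regions had a peak in 3 libraries or in 1. Efnb2 3 (chr8:8659740-8660044, intron 1, 898 bp from the start region) had pileups of 16 in d2 replicate 1 and of 21 in each d4 library. Its d2 peak had a −log10 q of 4.20, so that with peaks of at least 5 it counted as gained and Efnb2 had 2 gained regions. The remaining 6 regions had a peak in 1 library each, with pileups from 7 to 17, and were split evenly between d2 and d4. Among them Efnb2 4, in d2 replicate 2 only, lay 515 bp from the lost Efnb2 5.

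**Figure D2:**
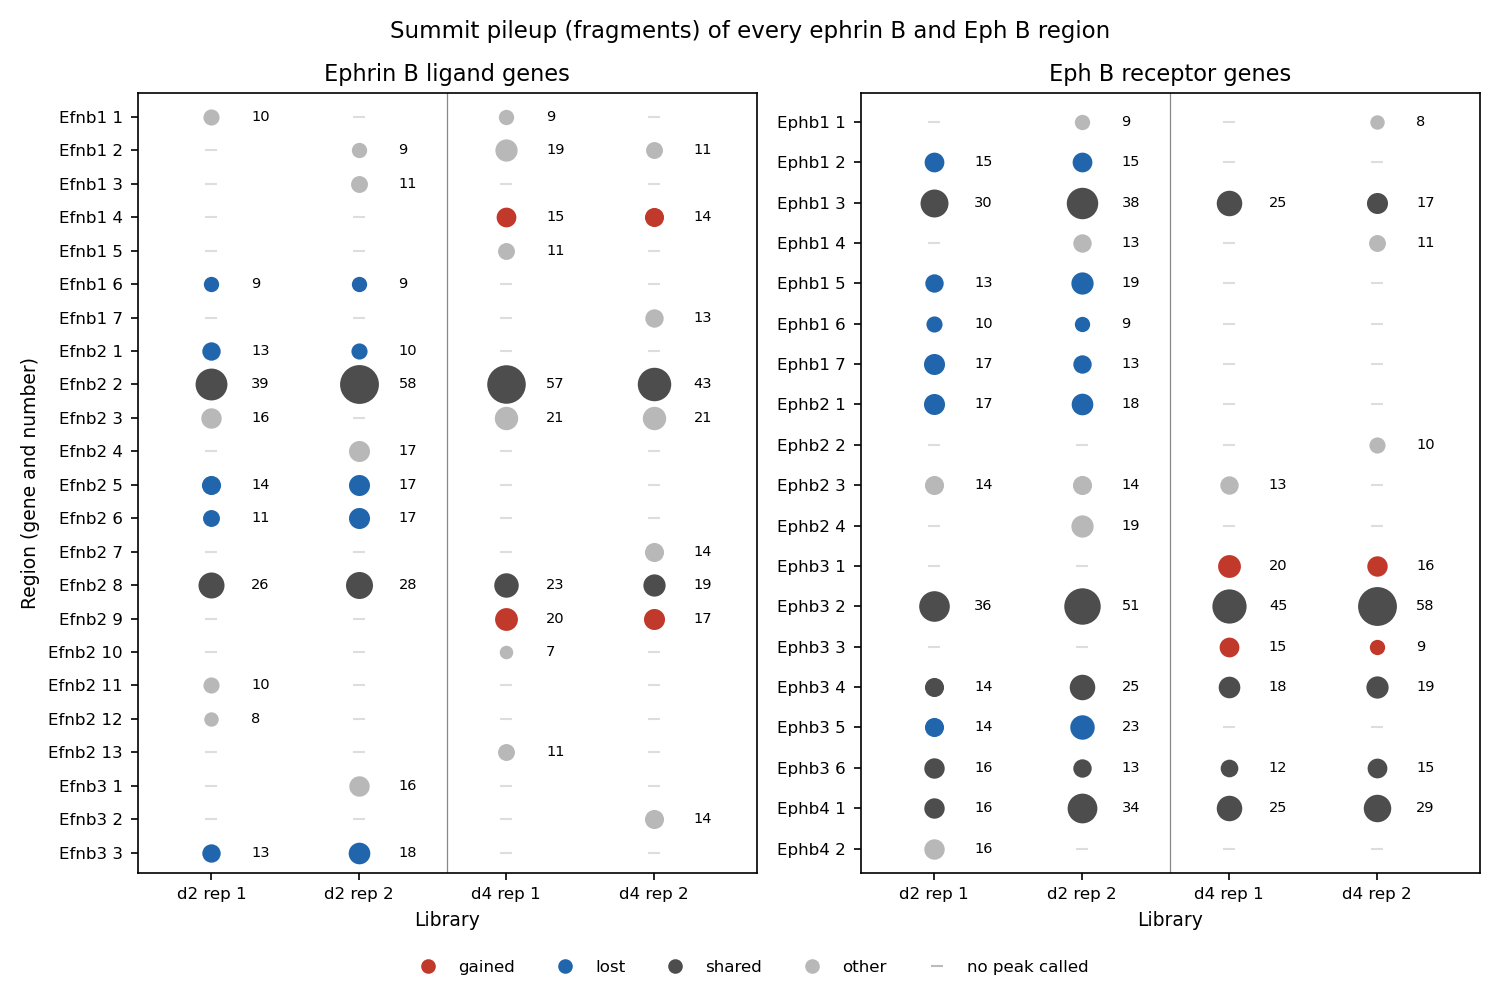
Summit pileup (fragments) of each of the 42 regions in the 4 libraries, as the printed number and the area of the point, coloured by class, with a dash where no peak was called. Gained and lost regions hold pileups from 9 to 23, while the shared start regions of Efnb2 and Ephb3 reach 58.

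Efnb1, the X-linked ligand gene, had 7 regions, none of which was shared. Its start region (Efnb1 2, chrX:99135911-99136337, 5′ UTR) had pileups of 19 and 11 at d4, against 9 in d2 replicate 2 and no peak in d2 replicate 1. The gained Efnb1 4 (chrX:99199333-99199473), 63203 bp downstream of the start, had pileups of 15 and 14 at d4, with summits 20 bp apart. The lost Efnb1 6 (chrX:99216881-99217212), 80751 bp downstream, had pileups of 9 in both d2 libraries. That loss stood beside a peak of 11 fragments in d4 replicate 1 (Efnb1 5), whose edge lay 15 bp away, so that joining peaks within 500 bp ended the loss. The other 3 regions were Efnb1 1, 980 bp upstream, with 10 in d2 replicate 1 and 9 in d4 replicate 1, and Efnb1 3 and Efnb1 7 in 1 library each.

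Efnb3, a ligand best known from axon guidance at the midline of the nervous system, had 3 regions. The one at its start (Efnb3 3, chr11:69559984-69560355, 5′ UTR) was lost, with pileups of 13 and 18 at d2 and no peak at d4. Among the outer start regions of the 7 genes it was the only one that had peaks in both d2 libraries and neither d4 library. The remaining regions were Efnb3 1, with 16 fragments in d2 replicate 2, and Efnb3 2, with 14 fragments in d4 replicate 2. Their edges lay 6 bp apart, and Efnb3 1 overlapped exon 10 of the neighbouring gene Wrap53.

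Among the receptors, Ephb1 had the most lost regions, 4 of its 7, and none gained. Its start region (Ephb1 3, chr9:102354607-102354948) was shared, with pileups of 30 and 38 at d2 and 25 and 17 at d4. Both d4 values were below both d2 values. The summits of all 4 libraries lay within 11 bp, the narrowest span of the 7 shared regions.

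The lost Ephb1 regions lay on both sides of its start. Ephb1 2 (chr9:102403546-102403893), intergenic and 48853 bp upstream, had pileups of 15 in each d2 library, with −log10 q of 11.1 and 12.4. Ephb1 5 (chr9:102342122-102342627), in intron 1, had 13 and 19 at d2. Ephb1 7 (chr9:102267390-102267923), also in intron 1, had 17 and 13, and Ephb1 6 (chr9:102295554-102295737) had 10 and 9. Of the 11 lost regions of the family, Ephb1 2 was the only one above a −log10 q of 10 in both d2 libraries, and its summits were 1 bp apart. The other regions, Ephb1 1 at 69085 bp upstream and Ephb1 4 in exon 1, had a peak in replicate 2 of each time point, with pileups of 9 and 8 and of 13 and 11 at d2 and d4.

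Ephb2, which acts with Ephb3 in axon guidance and in the ordering of cells along the intestinal crypt, had 4 regions. Its start region (Ephb2 3, chr4:136835963-136836274) had pileups of 14 in each d2 library and of 13 in d4 replicate 1, and no peak in d4 replicate 2. The lost Ephb2 1 (chr4:136750910-136751046, intron 3) had pileups of 17 and 18 in the d2 libraries with summits 1 bp apart. A peak of 10 fragments in d4 replicate 2 (Ephb2 2) lay 1725 bp from it. Ephb2 4, in intron 1, had 19 fragments in d2 replicate 2 only.

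Ephb3 had 6 regions, all of them called in both libraries of at least 1 time point. At its outer start (Ephb3 2, chr16:21204364-21205180) the pileups were 36 and 51 at d2 and 45 and 58 at d4. The values overlapped between time points and were the highest of the receptors. Both gained regions of the receptors were inside this gene. Ephb3 1 (chr16:21210714-21211276, intron 1 of the longest transcript and over the start of a shorter coding one) had pileups of 20 and 16 at d4, and Ephb3 3 (chr16:21216144-21216311, intron 3) had 15 and 9.

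Downstream of Ephb3 the regions were of both kinds. Ephb3 4 (chr16:21245991-21246712) was shared, with 14 and 25 fragments at d2 and 18 and 19 at d4. The lost Ephb3 5 (chr16:21248532-21248865), 1819 bp further, had 14 and 23 at d2. Both lay in noncoding transcripts. The farthest shared region, Ephb3 6 (chr16:21310709-21311191), had 16 and 13 at d2 and 12 and 15 at d4, and its distance of 98292 bp put it just inside the limit of 100 kb.

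Ephb4, the venous receptor of ephrin B2, had 2 regions and no gained or lost one. Its start region (Ephb4 1, chr5:137349632-137350434) was shared, with 16 and 34 fragments at d2 and 25 and 29 at d4. The d4 values fell between those of the d2 replicates. The other region, Ephb4 2, had 16 fragments in d2 replicate 1 only.

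**Figure D3:**
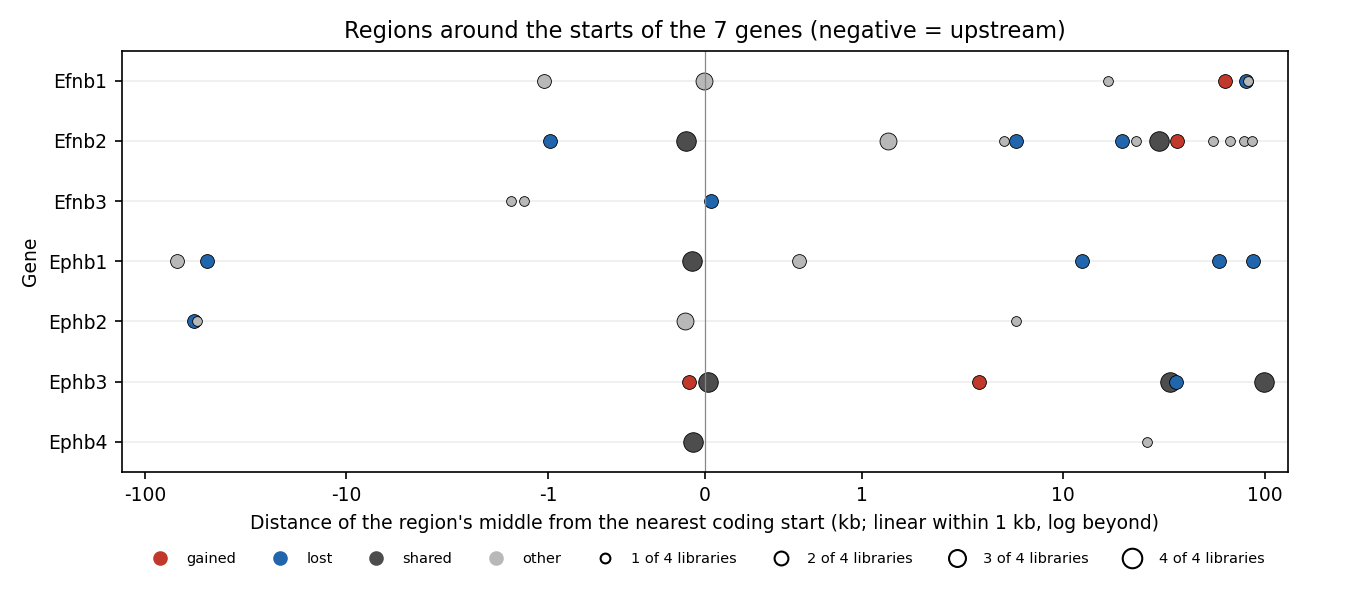
Each region by the distance of its middle from the nearest coding start (kb, linear within 1 kb and logarithmic beyond, negative upstream), by gene, with colour for the class and size for the number of libraries with a peak. The outer start regions of Efnb2, Ephb1, Ephb3 and Ephb4 are shared, that of Efnb3 is lost, and the 4 lost regions of Ephb1 lie on both sides of its start.

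The start regions of the arterial ligand and the venous receptor both had peaks at d2 and at d4. The sequences shown next are the 250 bp before their RefSeq starts on the gene's strand (GRCm38.p6, chr8:8661243-8661492 minus for Efnb2 and chr5:137349859-137350108 plus for Ephb4), with KLF/SP matches on either strand in capitals, since the shared peaks cover them.
Efnb2 promoter: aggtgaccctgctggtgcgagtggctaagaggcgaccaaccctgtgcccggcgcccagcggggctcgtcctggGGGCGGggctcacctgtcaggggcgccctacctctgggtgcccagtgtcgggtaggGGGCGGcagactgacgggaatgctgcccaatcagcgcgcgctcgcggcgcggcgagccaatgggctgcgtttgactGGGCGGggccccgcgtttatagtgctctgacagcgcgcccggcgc
Ephb4 promoter: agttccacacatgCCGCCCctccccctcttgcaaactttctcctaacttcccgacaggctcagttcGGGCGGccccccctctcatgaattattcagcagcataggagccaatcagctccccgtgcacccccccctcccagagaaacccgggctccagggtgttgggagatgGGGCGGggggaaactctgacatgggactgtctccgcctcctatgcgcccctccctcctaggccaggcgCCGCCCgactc
The Efnb2 sequence held 3 KLF/SP matches, 27 CpG sites and 72% GC, and the Ephb4 sequence 4 matches, 12 CpG sites and 64% GC. Of the 6 genes of the family with a RefSeq promoter entry, Ephb3 held 2 matches and Efnb1, Ephb1 and Ephb2 none. Such a match stood in 34.7% of all 32851 promoter windows of that length, whose median GC was 52.4% with 6 CpG sites.

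By position, the 12 regions of the family within 1000 bp of a transcript start of any type comprised 2 gained, 2 lost, 4 shared and 4 other regions. Among the gained ones was Ephb3 3, 506 bp from an Ephb3 transcript that is not protein-coding. The 30 distal ones comprised 2 gained, 9 lost, 3 shared and 16 other. Among all assigned regions near a start 2.55% were gained, 9.66% lost and 55.0% shared, and among distal ones 14.6% were gained, 16.9% lost and 8.02% shared. Of the 11 lost regions 6 were intronic, 2 intergenic and 1 each in a 5′ UTR, a 3′ UTR and a noncoding transcript. Ligands and receptors held nearly the same number of gained and lost regions, with 2 and 5 of 23 at the ligands and 2 and 6 of 19 at the receptors. A peak in 1 library only was found in 11 regions of the ligands (47.8%) and 3 of the receptors (15.8%), against 33.3% of the 42 and 34.5% of all assigned regions.

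Efnb1, Efnb2 and Ephb3 had both a gained and a lost region. Over all 15068 genes with a region, 4.93% had both, and genes with many regions have more chances of it. The genes were chosen with both kinds known at Efnb2, so nothing is read from that share. Efnb3, Ephb1 and Ephb2 had lost regions only, and Ephb4 neither kind. In number of peaks, the d2 libraries had 24 and 26 of the 42 regions and the d4 libraries 18 and 19. Across all assigned regions the d2 libraries also had more, 23133 and 22178, than the d4 libraries, 19423 and 18529.

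**Figure D4:**
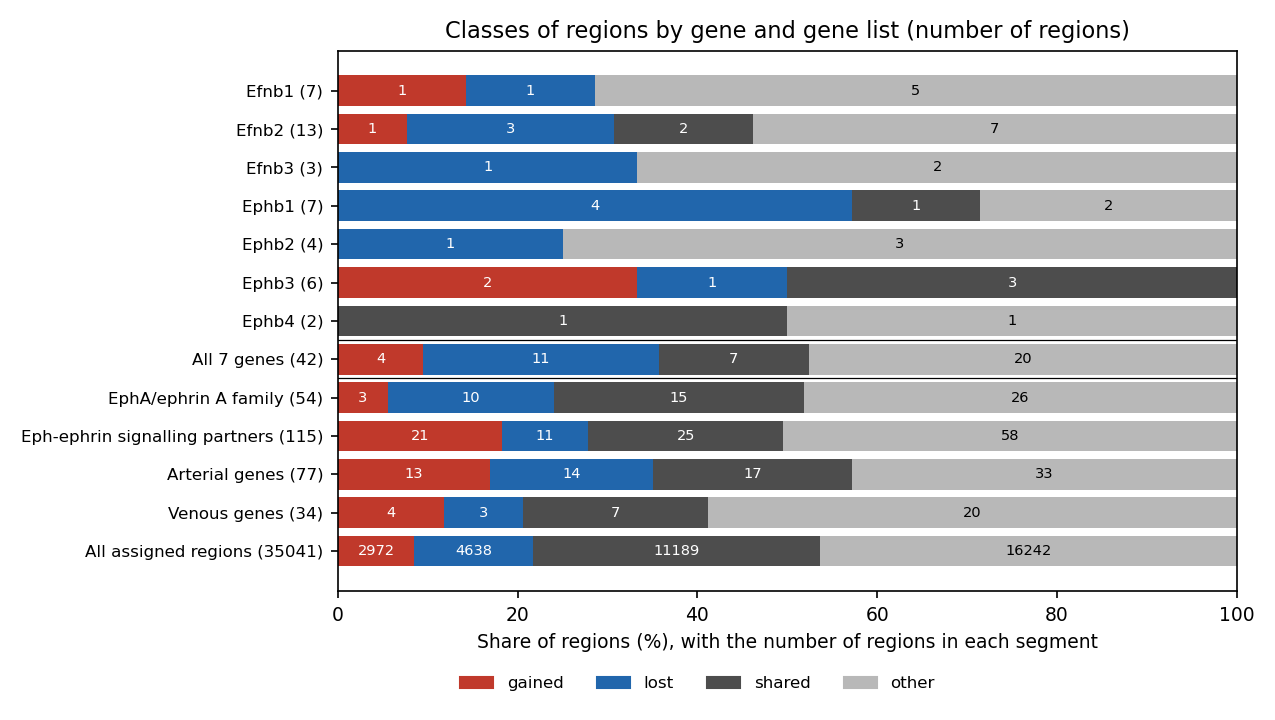
Share of regions (%) in each class, with the number of regions in the segments, for each gene, the 7 genes together, 4 gene lists and all assigned regions. Lost regions make up 4 of 7 at Ephb1 and none at Ephb4, and the signalling partners hold 21 gained and 11 lost regions.

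The 7 shared regions allowed the peaks to be compared in size. Height was the summit pileup divided by the median over all 11494 shared regions of the same library, on the log2 scale. At the Ephb1 start it was 0.47 ± 0.03 at d2 and −0.25 ± 0.35 at d4 (SD, n = 2), and at Efnb2 8 it was 0.15 ± 0.13 and −0.23 ± 0.15. These were the 2 regions in which both d4 heights lay below both d2 heights, by 0.72 and 0.38 in the mean, and no region of the family had both above. Over all shared regions 21.1% had both d4 heights below and 29.7% both above.

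In the other 5 shared regions d2 and d4 overlapped. The differences, d4 minus d2, were 0.25 at the Ephb3 start, 0.20 at the Ephb4 start, 0.05 at the Efnb2 start, −0.02 at Ephb3 4 and −0.11 at Ephb3 6. The d2 replicates of the Ephb4 start alone had an SD of 0.56. The median difference was −0.02 for the family and 0.06 for all shared regions. With 2 libraries against 2 an exact permutation test could not go below p = 0.333 (two-sided), and none was run.

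**Figure D5:**
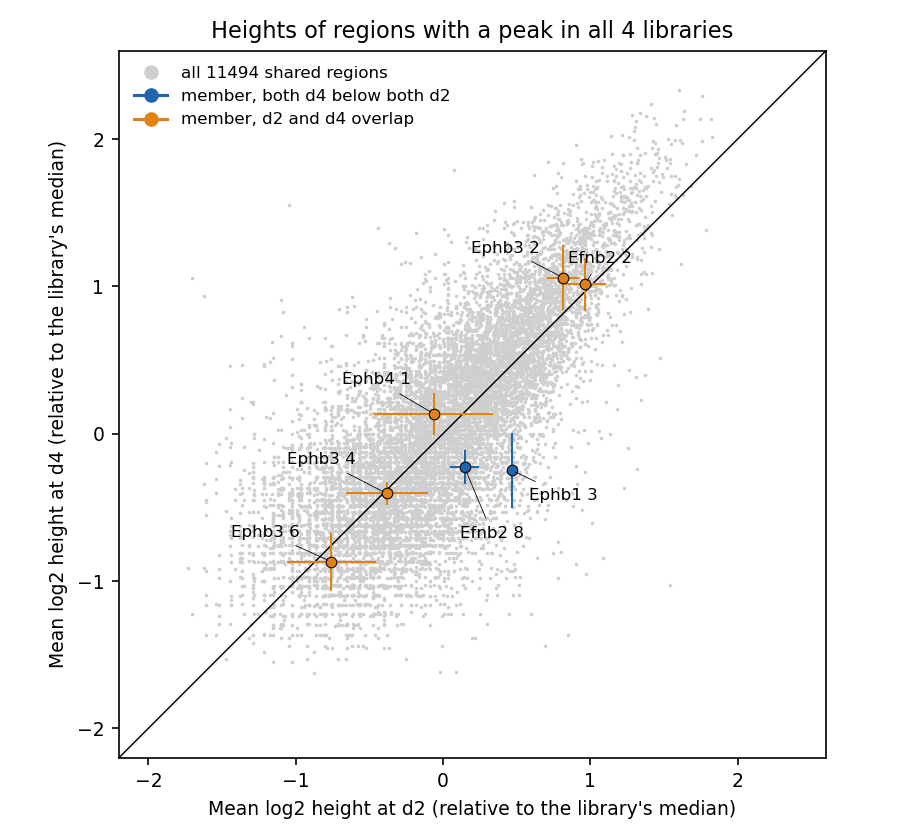
Mean log2 height at d2 (horizontal) and d4 (vertical), each relative to the library's median over shared regions, for all 11494 shared regions in grey and the 7 of the family in colour, whose lines span both replicates. Efnb2 8 and Ephb1 3 (the Ephb1 start) lie below the diagonal by 0.38 and 0.72, and in the other 5 the d2 and d4 heights overlap.

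The scaling matters for these heights. Scaled by the genome-wide background coverage, the median difference over all shared regions was −0.45 instead of 0.06, and 54.4% were lower and 4.39% higher at d4. Under that scaling Ephb3 6 joined Efnb2 8 and Ephb1 3 as lower, and the median of the family was −0.53. Under each of the 3 other scalings or measures and with any 1 library left out, Efnb2 8 and Ephb1 3 remained lower at d4. Without d2 replicate 1, Ephb3 4 and Ephb4 1 were also lower, and without d2 replicate 2 the count of regions higher at d4 rose from 0 to 4 (Efnb2 2, Ephb3 2, Ephb3 4 and Ephb4 1). Without d4 replicate 1 the count was 1 (Ephb3 2), without d4 replicate 2 it was 1 (Efnb2 2), and by the deposited fold enrichment it was 2 (Ephb3 2 and Ephb3 4).

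Motif letters were looked for on either strand up to 100 bp from the highest summit, and matches may overlap. GATA factors, which act in mesoderm and blood vessels, were searched as AGATAA and, with another leading base, as TGATAA. For ETS factors, which endothelial genes commonly carry sites for, the letters were CAGGAAG and a form with a CpG, which was CCGGAAG. The E-box of basic helix-loop-helix factors was taken as CAGCTG and, as its variant, CATCTG. AP-1 was searched as TGACTCA with its reverse complement, and SOX factors were searched as AACAATG or in a variant form as AACAAAG. RBPJ, through which Notch signals, was searched as GTGGGAA and KLF/SP factors as GGGCGG or as the separate letters GGGTGTGG. The list was completed by TEAD with GGAATGT, by forkhead factors with the letters TGTTTAC, by OCT factors with the letters ATGCAAAT, and by a composite of E-box and GATA. GATA matches stood in 4 of the 42 regions, 2 gained and 2 lost, against 15.5% of all 40910 union regions, 51.7% of all gained and 7.70% of all lost ones. ETS matches stood in 8 regions, 3 of them gained, against 17.0% of all and 20.7% of all gained regions. KLF/SP matches stood in 13 and E-boxes in 12, against 32.7% and 27.8% of all. SOX and RBPJ matches stood in 4 each, against 7.60% and 4.60% of all. AP-1, TEAD and forkhead matches stood in 1 each, against 4.77%, 3.76% and 3.15%, and OCT and the composite in none, against 1.90% and 1.81%.

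In base composition the 4 gained regions had a median GC of 57.5%, the 11 lost ones 54.7% and the 7 shared ones 65.4%, against 50.8%, 55.6% and 64.1% for all union regions of each class. The gained regions ranged from 56.0% to 63.6%. The lost Efnb1 6 had the highest GC of the 42, 75.0%, with an observed over expected CpG ratio of 0.88, whereas the lost Efnb2 6 had a ratio of 0.06. Gained members had a median width of 263.5 bp and lost ones of 333 bp, against 283 and 284 bp over all regions of those classes.

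Beyond the limit of 100 kb, 12 more regions, up to 1665123 bp away, had Efnb2 as the nearest coding gene. Of these, 4 were gained and none lost. No share over all regions beyond the limit stands beside these counts, so nothing is read from them. The gained one with the highest pileups (chr8:8109844-8110274, 529089 bp from the inner start) had 23 and 29 fragments at d4. Another (chr8:8220236-8220492, 418871 bp) had 23 and 21, and the remaining ones, at 401858 and 156839 bp, had 11 and 11 and 14 and 12. The region just outside the limit for the family was at Efnb1, 105677 bp from its start, with 8 fragments in d4 replicate 2. Within the long Ephb1 gene of 432.6 kb, 6 more regions lay beyond the limit or nearer to another coding start. Of these 3 were lost and 1 was gained, and a pair of lost ones 142522 and 142975 bp from the start (chr9:102211828-102212171 and chr9:102211399-102211718) had pileups of 22 and 20 and of 25 and 20 at d2. In d2 replicate 1 these exceeded all 11 lost regions counted for the family, which reached 17. No share over comparable regions stands beside the Ephb1 counts either, and nothing is read from them.

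The rest of the pathway was described by counts from textbook lists, which were chosen with earlier results of these data known. Nothing is read from their shares, and across all assigned regions 8.48% were gained and 13.2% lost. Of 15 EphA, ephrin A and remaining family genes, 14 had 54 regions, of which 3 (5.56%) were gained and 10 (18.5%) lost. Efna5, a membrane-anchored ligand of the A class, had 3 lost and no gained region of 7. Epha4, a receptor that binds ligands of both classes, had 2 gained and 2 lost of 10.

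Of 29 genes of signalling partners, 26 had 115 regions. Of these, 21 (18.3%) were gained and 11 (9.57%) lost, against 8.48% and 13.2% of all assigned regions. Neither kind was found at 12 of the 26 genes. Rgs3, a regulator of G protein signalling that binds the ephrin B tail, had 5 gained and no lost region of 13. Tiam1 and Vav3, guanine nucleotide exchange factors, had 4 gained and 1 lost each, of 19 and 11. Itsn1, an exchange factor that works with EphB receptors, had 1 gained and 2 lost of 4. Fyn, a Src-family kinase, had 2 gained and none lost of 5, and 3 more genes of the list had 2 gained or 2 lost regions.

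Arterial and venous genes had regions of both kinds. Of 20 arterial genes, 19 had 77 regions, 13 (16.9%) gained and 14 (18.2%) lost. The Notch ligand gene Dll1 had 2 gained and 2 lost of 6, and the Notch ligand gene Jag1 1 gained and 2 lost of 6. The transcription factor genes Sox7 and Mecom had 2 gained and 1 lost each, of 3 and 8. Hey1 and Cxcr4 had 2 gained and none lost each, of 9 and 7, and the chemokine gene Cxcl12 had 3 lost of 5. Of 8 venous genes, 7 had 34 regions, 4 (11.8%) gained and 3 (8.82%) lost. Aplnr, the apelin receptor gene, had 3 gained of 8, and Nrp2, which encodes a neuropilin, 1 gained and 2 lost of 9. The genes with class counts most like those of Efnb2 were Rnf220, with 3 lost and no gained region, and Tspan5, with 2 gained and 3 lost, which both differed from it by 1 region among 15067 genes.

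Depth could be judged only from the peak lists, which held between 21299 and 26865 peaks per library. Relative to d4 replicate 1, background coverage was 0.752 and 0.640 in the d2 libraries and 0.985 in d4 replicate 2, and the smallest called pileup was 6 at d2 and 7 at d4, so the lost and gained calls above, at 9 to 23 fragments, rest on few fragments. Their part in these calls was not tested. Markers of the cells the culture could hold also had regions of both kinds. Across all assigned regions 8.48% were gained and 13.2% lost. Pluripotency genes had 2 gained and 5 lost of 22 (Klf4 1 and 2), and mesoderm genes 6 and 1 of 31 (Eomes 2 and 1). Endothelial genes had 1 and 1 of 25, and 22 of the 25 were of the other class. The paper compared accessibility instead of counting peak calls. By its measure, regions of Cdh5, Eng, Flt1 and Pecam1 were more accessible at d4. Kdr, which the paper lists with endothelial markers, was counted with mesoderm here and had 1 gained region of 5. Neural genes had 1 and 8 of 25 (Sox1 and Pax3 0 and 3 each), and endoderm genes 2 and 4 of 17 (Foxa2 1 and 4). The part of such cells in the results was not tested.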

How the data were processed

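Peak lists of 4 ATAC-seq libraries of ES-E14TG2a mESCs, 2 from d2 and 2 from d4, were analysed, with groups and replicate numbers taken from the labels. As the methods of the study and GEO's processing notes state, the authors trimmed adapters (cutadapt), mapped reads to mm10 (Bowtie2), removed duplicates and, library by library and without a control, called peaks by MACS2 with paired-end input before dropping blacklisted ones. The deposited fold enrichment is the ratio of pileup to local background at the summit. The deposited −log10 p and −log10 q values are those of the authors' caller, with peaks kept at q of 0.001. The deposited score column, derived from −log10 q, was not used. Read totals are not given in the sources used here.

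The summit pileup and background of each peak were solved from the fold enrichment and −log10 p, which gave whole pileups for 100% of peaks (tolerance 0.001 in −log10 p). The solution was tested on simulated data. If the authors' caller extended reads instead of using fragments, pileups count extended reads. Peaks overlapping by at least 1 bp were merged, and each region was assigned to the nearest start of a protein-coding transcript within 100 kb (GENCODE release M 21, mm10), with no tie for any region of the 7 genes. Sequences came from the RefSeq genome and promoter table of GRCm38.p6, the build of mm10. Coordinates are 1-based. Python 3.11.15, pandas 2.3.3, scipy 1.17.1 and pysam 0.24.0 were used.

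The members and gene lists were chosen with earlier results of these data known. All 7 genes were named. From each list, genes with at least 2 gained or 2 lost regions were named, up to 5 with the most, and from the arterial list also Hey1 and Cxcr4. Genes like Efnb2 were those with the smallest summed difference in the 4 class counts. Alternatives were other overlaps, thresholds, gene assignments, scalings and motif windows, and leaving out each library.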

Additional observations from a re-analysis of the deposited data

How the results depend on the processing

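Across the alternatives, 66 values stayed within 1.5 times the main count or within the replicate spread, and 31 moved. With −log10 q of at least 10, the 42 regions became 19, with 1 gained, 1 lost and 4 shared, and Efnb2 had 1 gained and 0 lost. With the top 15000 peaks of each library 22 regions were left, with 3 gained, 1 lost, 4 shared and 0 lost at Efnb2. Lost regions thus outnumbered gained ones in the main setting (11 and 4) but under neither of these 2 stricter settings. With the nearest start of any gene type 26 were left, with 6 lost, 4 shared and 0 gained at Efnb2. Without a distance limit 8 were gained, 5 of them at Efnb2, and with −log10 q of at least 5 Efnb2 had 2 gained. Fewer peaks, or other starts, are part of how these alternatives are built. Leaving out each library in turn gave 38 to 39 regions, 5 to 8 gained (8 without d4 replicate 1 and 7 without d4 replicate 2), 11 to 15 lost, and 7 to 8 shared. At Efnb2 it gave 1 to 3 gained (2 without d2 replicate 1 or d4 replicate 1 and 3 without d4 replicate 2) and 3 to 5 lost (5 without d2 replicate 2). A call then rests on 3 libraries, which lets more patterns count. Shared regions lower at d4 numbered 2 to 4 (4 without d2 replicate 1) and those higher at d4 0 to 4, and 2 were higher by the deposited fold enrichment. Without one library the median height difference of shared regions ranged from −0.20 to 0.19, so its sign depended on the library left out, and scaled by background coverage it was −0.53. The 48 motif matches became 24 within 50 bp and 77 within 200 bp of the summit. Counting the starts of all transcripts of the coding genes, an alternative chosen after seeing the data, gave 43 regions, 5 gained and 12 lost. The labels and methods do not say that a replicate number marks the same experiment at d2 and d4, and the replicate deviations at d2 and d4 correlated at r = 0.01 across the 11494 shared regions. With the libraries paired by replicate number (a replicate block, also added after seeing the data), 2 regions (Efnb2 8 and Ephb1 3) were lower at d4 in both pairs and 1 was higher, Ephb3 2, by 0.14 and 0.36 on the log2 scale, against 26.8% and 36.6% of all shared regions. Peak lists limit all calls, since a region below the threshold has no value.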
